A study of Mus musculus with 8 samples.

Results

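The cytosolic ribosomal protein genes were compared between bone marrow (BM) of acute myeloid leukemia (AML) mice with an intact, a heterozygous or no functional Gab2 gene. Members were the protein-coding genes of the GENCODE M21 annotation with a symbol of the form Rpl or Rps followed by a number, together with Rpsa, Rplp0, Rplp1 and Rplp2, without the ribosomal S6 kinases and the symbols of pseudogenes. Of 86 such genes, 82 were in the count table of 13305 genes, and Rpl10l, Rpl24, Rpl39l and Rpl3l were not analysed here. They comprised 34 genes named for the small subunit and 48 named for the large subunit. The symbol rule also took in 6 genes that are not core ribosomal proteins: the paralogs Rpl22l1, Rps27l, Rps27rt, Rpl36al and Rpl7l1, and Rps19bp1, which encodes a protein that binds Rps19.

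Each ribosome carries a single copy of most of these proteins, so their genes are among the most highly transcribed of any dividing cell. Many of their mRNAs start with a run of pyrimidines, the 5′ terminal oligopyrimidine (TOP) motif, through which mTOR signaling controls their translation. In marrow the family is best known for Diamond-Blackfan anemia, in which loss of a single copy of a ribosomal protein gene impairs red cell formation.

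All 8 mice were C57BL/6N and carried Mx1-Cre, a heterozygous loss of the DNA methyltransferase Dnmt3a and 2 alleles of Flt3 with an internal tandem duplication (Mx1-Cre; Dnmt3a+/-; Flt3ITD/ITD). They differed in Gab2, which encodes a docking protein that relays cytokine and growth factor receptor signals: 3 mice were Gab2 wild type (AML WT), 2 heterozygous (AML HET) and 3 knockout (AML KO). Whole BM of 1 mouse made 1 library, and the age of the sequenced mice is not given in the sources used here. The Flt3 allele was a constitutive knock-in, and the Gab2 knockout allele has a neomycin cassette in place of part of its exons in every cell of the mouse, not only in the marrow. Libraries held 28009258 to 39266815 counts, and the defining markers of neutrophils, monocytes, erythroid cells and stem and progenitor cells were all detected. Gab2 stood at 93.9, 68.5 and 61.6 CPM (counts scaled by TMM-normalized library size) in AML WT, 55.8 and 50.8 in AML HET and 35.0, 47.2 and 40.2 in AML KO. The Gab2 log2 fold change of AML KO against AML WT was −0.87 ± 0.18 (SE; adjusted p = 0.0420, edgeR), and its adjusted p rose to between 0.0783 and 0.159 when any 1 of the mice AML WT 1, AML WT 2, AML HET 1, AML HET 2, AML KO 1 or AML KO 3 was left out. The counts are per gene and do not show on which Gab2 exons the reads lay.

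The start sites of the 3 members with the largest log2 fold change of AML KO against AML WT and of the 3 core members with the lowest values are shown because they allow the TOP motif to be read beside the change. Each window runs 5′ to 3′ from 50 bases before to 20 bases after the RefSeq start (GRCm38.p6). Capitals mark the pyrimidine run, defined as at least 5 C or T that begin with C within 10 bases of that start. Rplp2 is read from chr7:141447601-141447670 on the plus strand, Rpl38 from chr11:114668530-114668599 on the plus strand and Rps12 from chr10:23787190-23787259 on the minus strand. Rpl15 is read from chr14:18270967-18271036 on the minus strand, Rpl10 from chrX:74270766-74270835 and Rpl4 from chr9:64173337-64173406, both on the plus strand.
Rplp2: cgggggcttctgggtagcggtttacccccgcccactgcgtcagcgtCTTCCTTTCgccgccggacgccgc
Rpl38: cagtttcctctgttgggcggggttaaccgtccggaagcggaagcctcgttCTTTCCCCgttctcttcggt
Rps12: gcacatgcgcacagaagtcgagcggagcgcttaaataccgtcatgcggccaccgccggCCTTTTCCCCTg
Rpl15: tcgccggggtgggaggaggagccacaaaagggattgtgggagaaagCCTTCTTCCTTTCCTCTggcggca
Rpl10: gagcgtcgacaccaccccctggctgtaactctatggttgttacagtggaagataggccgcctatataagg
Rpl4: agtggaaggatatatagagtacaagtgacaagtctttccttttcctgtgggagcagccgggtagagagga

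The 3 genes with the largest values each carried a run, and so did Rpl15, whereas Rpl10 and Rpl4 had none in the searched bases. The Rpl4 window holds a pyrimidine stretch upstream of the annotated start. Of the 62 members with a promoter entry, 37 (59.7%) held such a run, against 34.4% of all 27025 genes with an entry. The median log2 fold change of AML KO against AML WT was 0.35 in the 37 members with a run and 0.33 in the 25 without. In the windows from 250 bases before to 50 after the start, on either strand, the ETS family motif CCGGAAGT was present in 12 members (19.4%, against 4.31% of all genes). These are matches of letters only.

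Ribosomal protein genes took a somewhat larger part of the libraries of AML KO mice than of AML WT mice. Their share of all counts was 8.12% in AML WT 1, 10.2% in AML WT 2 and 10.5% in AML WT 3. It was 9.93% and 10.95% in AML HET 1 and 2, and 14.1%, 10.6% and 11.01% in AML KO 1, 2 and 3. All 3 AML KO mice were above all 3 AML WT mice, but AML KO 2 exceeded AML WT 3 only at 10.60% against 10.54%. The mean share was 9.62% ± 1.31 (SD, n = 3) for AML WT, 10.4% ± 0.725 (n = 2) for AML HET and 11.9% ± 1.92 (n = 3) for AML KO. The means of AML KO and AML WT differed by more than the SD of either group. They differed by less than the lowest and highest mouse within either group did. Counting error was far smaller: the 95% Wilson interval for AML WT 1 ran from 8.11% to 8.13%. Because whole BM was sequenced, fewer cells of a type and less RNA per cell cannot be told apart.

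**Figure D1:**
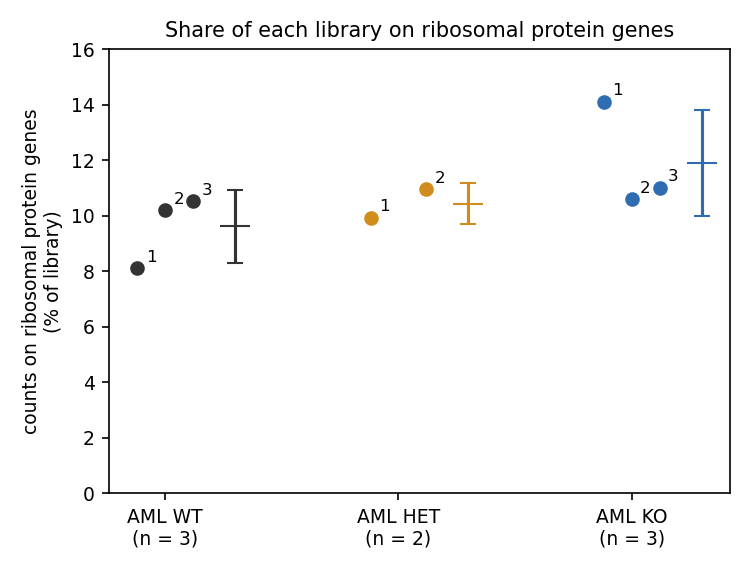
Counts on the 82 ribosomal protein genes as a percentage of each library (y axis) in the 3 genotype groups (x axis), where points are mice numbered within their group and the bar beside them is the mean ± SD. AML WT 1 at 8.12% and AML KO 1 at 14.1% stand apart from the other 6 mice, which lie between 9.93% and 11.01%.

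Of the 82 members, 79 had a log2 fold change above 0 in AML KO against AML WT, where 48.1% of all genes did. The median was 0.35 with quartiles of 0.20 and 0.49 and a range from −0.11 to 0.93, and the median over all genes was −0.02. No member passed the threshold of an adjusted p of 0.05 in edgeR's quasi-likelihood test, in which 278 genes (2.09%) did; the smallest adjusted p of a member was 0.191. At an unadjusted p under 0.05 stood 25 members, all of them higher in AML KO, against 9.77% of all genes in that direction and 17.7% in either. In 28 members every AML KO mouse was above every AML WT mouse (12.3% of all genes), and in 0 members every AML KO mouse was below (9.83% of all genes). DESeq2 had 35 members at an unadjusted p under 0.05 (19.8% of all genes) and 1 past the adjusted threshold, Rplp2 (log2 fold change 0.93, adjusted p = 0.0389), among 730 genes in all (5.49%).

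**Figure D2:**
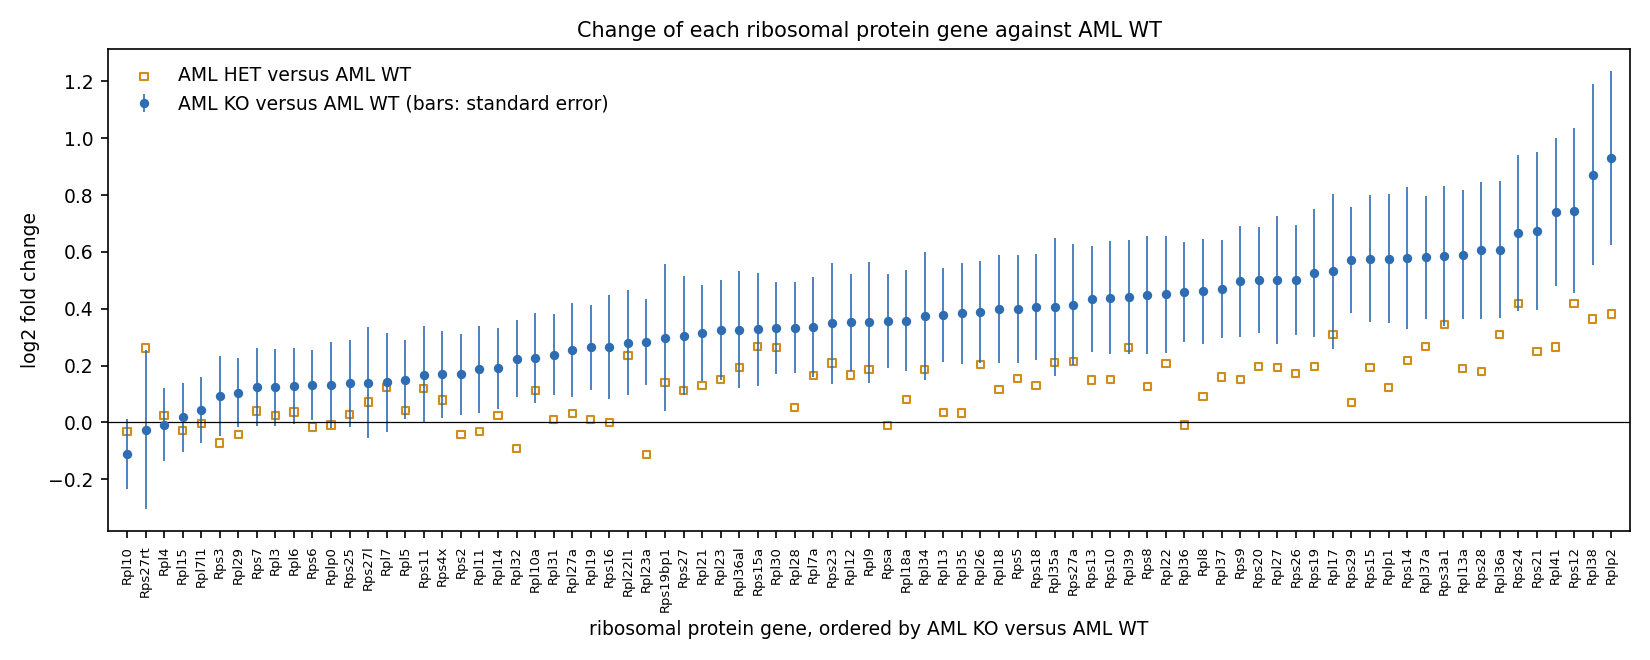
Log2 fold change against AML WT (y axis) of 81 of the 82 ribosomal protein genes (x axis, ordered by the value in AML KO), where filled circles with standard error bars are AML KO and open squares AML HET. All but Rpl10, Rps27rt and Rpl4 lie above 0 in AML KO, from −0.11 for Rpl10 to 0.93 for Rplp2.

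Of the 8 mice, AML WT 1 and AML KO 1 lay at the 2 ends of the members' values. AML WT 1 had the lowest CPM of all 8 mice for 72 of the 82 members, and AML KO 1 had the highest for 77. The share of counts on genes of the mitochondrial genome was also lowest in AML WT 1, at 1.06%, against 1.76% to 3.23% in the other mice and 2.93% in AML KO 1, and its part in the members' values was not tested. The median member lay 0.30 below the AML WT mean in AML WT 1 on the log2 scale (−0.30) and 0.68 above it in AML KO 1. It lay between 0.05 and 0.24 above that mean in each of the other 6 mice, of every genotype. The median log2 fold change of AML KO against AML WT was 0.22 without AML WT 1, with 3 members at an unadjusted p under 0.05 (10.9% of all genes), and 0.19 without AML KO 1, with 1 such member (9.36% of all genes). Without both mice it was 0.07, with 55 members above 0 and 0 at an unadjusted p under 0.05 (9.53% of all genes). Both mice were picked after the members' values were seen, so leaving them out was bound to lower the median. It cannot show where the difference came from. Values without this outer pair, here and below, carry the same limit. In the remaining 2 against 2 mice, 29 members did not overlap in the direction of AML KO, against 19.4% of all genes.

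The genes of the ribosomal stalk, which recruits translation factors to the large subunit, had values from 0.13 to 0.93, and the differences between them were not tested. Rplp2, one of the pair of acidic stalk proteins, had the largest fold change of all members. It stood at 1019, 1789 and 1791 CPM in AML WT 1, 2 and 3, at 1793 and 2200 CPM in AML HET 1 and 2, and at 4305, 2006 and 2453 CPM in AML KO 1, 2 and 3. The groups AML WT and AML KO did not overlap, AML KO 1 was far above all others, and the log2 fold change was 0.93 ± 0.31 (SE; adjusted p = 0.192, edgeR). It was 0.32 without AML WT 1 and AML KO 1. Rplp1, the other acidic stalk protein, stood at 1257, 1930 and 2005 CPM in AML WT, 1711 and 2059 in AML HET and 3330, 2113 and 2300 in AML KO, again without overlap of AML WT and AML KO (log2 fold change 0.58 ± 0.23, adjusted p = 0.249). Rplp0, the protein that anchors both to the ribosome, stood at 3344, 3318 and 3612 CPM in AML WT, 3188 and 3617 in AML HET and 4343, 3744 and 3173 in AML KO. For Rplp0 the groups overlapped, with AML KO 3 below every AML WT mouse (log2 fold change 0.13 ± 0.15, adjusted p = 0.639).

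After Rplp2, the largest values were those of Rpl38, Rps12, Rpl41 and Rps21, all genes of short proteins. Rpl38, a large subunit protein whose loss in mice alters the axial skeleton, stood at 255, 463 and 480 CPM in AML WT, 447 and 580 in AML HET and 1081, 477 and 633 in AML KO. AML KO 2 was below AML WT 3, so the groups overlapped (log2 fold change 0.87 ± 0.32, adjusted p = 0.230). Rps12, a small subunit protein, stood at 1435, 2158 and 2598 CPM in AML WT, 2509 and 3003 in AML HET and 5011, 2448 and 2915 in AML KO, with the same overlap (0.74 ± 0.29, adjusted p = 0.247). Rpl41, the shortest of the ribosomal proteins, stood at 628, 1076 and 1117 CPM in AML WT, 1004 and 1257 in AML HET and 2110, 1296 and 1308 in AML KO. Its AML KO mice were all above its AML WT mice (0.74 ± 0.26, adjusted p = 0.218). Rps21 reached a log2 fold change of 0.67 ± 0.28 (adjusted p = 0.262) with overlapping groups. Without AML WT 1 and AML KO 1, these 4 genes had log2 fold changes of 0.24, 0.17, 0.25 and 0.12.

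At the other end were Rpl10, Rps27rt, Rpl4, Rpl15 and Rpl7l1. Rpl10, an X-linked large subunit protein that joins the subunit late in its assembly, stood at 1603, 1546 and 1664 CPM in AML WT, 1510 and 1629 in AML HET and 1582, 1524 and 1345 in AML KO (log2 fold change −0.11 ± 0.12, adjusted p = 0.622). Rpl4, a long protein that lines the exit tunnel, stood at 2929, 2935 and 3031 CPM in AML WT, 2848 and 3177 in AML HET and 3133, 3018 and 2692 in AML KO (−0.01 ± 0.13, adjusted p = 0.976). In both genes AML WT 1 and AML KO 1 lay within the range of the other mice. Rpl15 had a log2 fold change of 0.02 ± 0.12, Rpl7l1 of 0.04 ± 0.12 and Rps27rt, which was counted at 2.30 to 4.46 CPM, of −0.03 ± 0.28. The sign of each of these values but that of Rpl10 changed under at least 1 alternative setting.

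**Figure D3:**
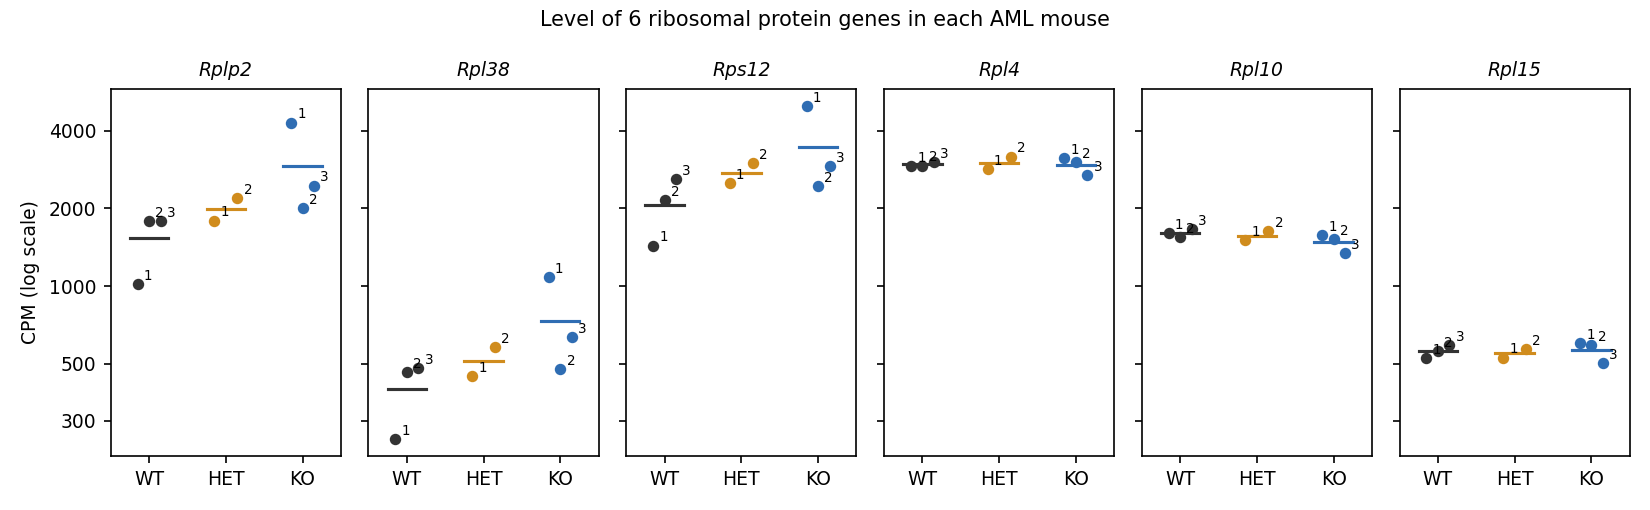
CPM on a log scale (y axis) in each AML WT, AML HET and AML KO mouse (x axis) for the 3 members with the largest log2 fold change and the 3 core members with the smallest, where points are mice numbered within their group and horizontal lines are group means. Rplp2 spans 1019 to 4305 CPM across the 8 mice, whereas Rpl4 spans 2692 to 3177 CPM.

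The log2 fold change was larger in members with a shorter product. Coding length, the number of coding bases in a gene's principal transcript, ranged from 75 bases in Rpl41 to 1257 bases in Rpl4 and had a median of 448.5 bases in the members, against 1380 in the other coding genes. The median log2 fold change of AML KO against AML WT was 0.57 in the 11 members of up to 300 bases, 0.38 in the 30 members of over 300 and up to 450 bases, 0.36 in the 18 of up to 600 bases and 0.18 in the 20 of up to 900 bases. Across the 82 members, log2 fold change and coding length had a Pearson's r of −0.51 and a Spearman's rho of −0.49, given as a description, since the members share the same 8 libraries. Without AML WT 1 and AML KO 1 these were −0.25 and −0.31.

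Coding genes outside the members, which include the mitochondrial ribosomal protein genes and Fau, showed the same order. Their median log2 fold change was 0.32 up to 300 bases (244 genes), 0.25 above that and up to 450 bases (569 genes), 0.15 up to 600 bases (745 genes), 0.11 up to 900 bases (1694 genes) and −0.24 above 3000 bases (1648 genes). Here too the outer mice were the same: genes of up to 300 bases lay at −0.35 in AML WT 1 and at 0.58 in AML KO 1 relative to the AML WT mean, and genes above 3000 bases at 0.26 and −0.42. With a smooth trend of coding length removed from each mouse, the members' median log2 fold change was 0.13, with 67 members above 0 and 0 past the adjusted threshold. In that fit 14 members, a share close to the 17.2% of all genes, had an unadjusted p under 0.05. With a trend of exonic length in its place, the median was 0.18, with 68 members above 0 and 21 at an unadjusted p under 0.05 (17.5% of all genes). Why short and long genes moved apart in these mice was not tested.

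**Figure D4:**
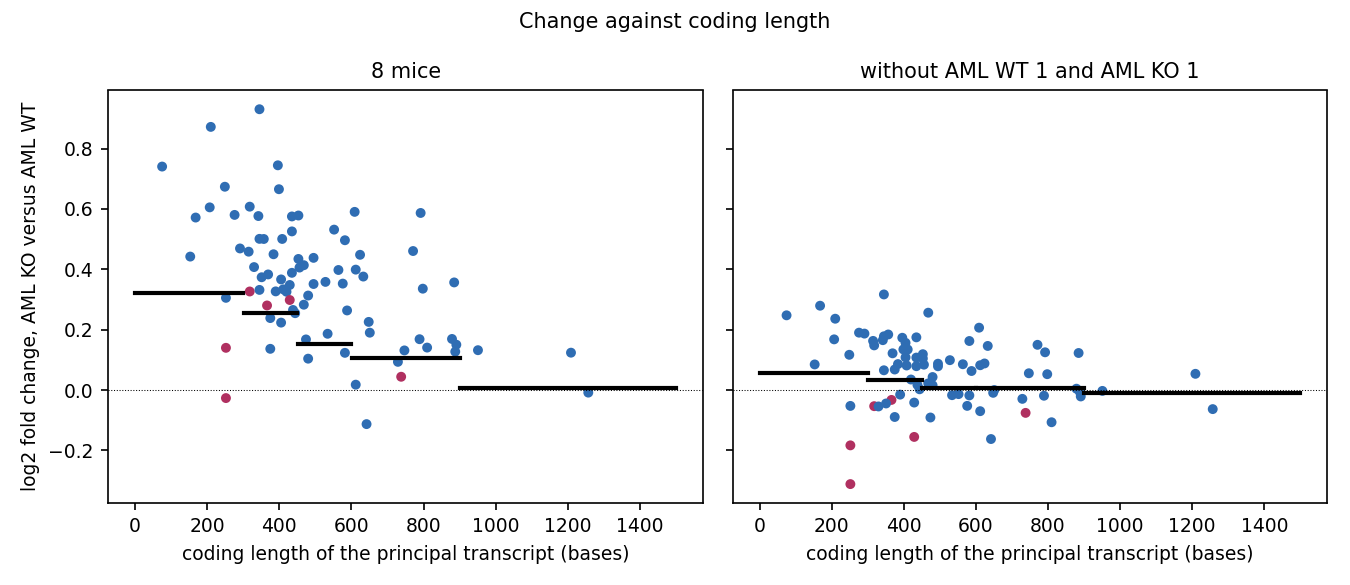
Log2 fold change of AML KO against AML WT (y axis) against coding length in bases (x axis), with all 8 mice (left) and without AML WT 1 and AML KO 1 (right), where blue points are core ribosomal proteins, red points the 6 paralogs and symbol matches, and black bars the median of the other coding genes in the same range of lengths. Among members of up to 300 bases, values reach 0.87 (Rpl38) on the left and 0.28 (Rps29) on the right, where the bars lie near 0.

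Markers of some mature blood cells were higher in AML KO together with the members. The 13 erythroid markers in the table summed to 319 to 451 CPM in AML WT, 696 and 2220 in AML HET and 5428, 1543 and 2191 in AML KO, and 11 of them were called higher in AML KO. The 12 mature neutrophil markers summed to 1316, 2657 and 4715 CPM in AML WT, 5431 and 6099 in AML HET and 17156, 12773 and 10484 in AML KO, with 7 called higher. All 12 megakaryocyte and platelet markers were called higher, from 40.3 to 42.5 CPM in AML WT to between 241 and 352 CPM in AML KO. Of the 10 monocyte and macrophage markers, 2 were called higher and 1 lower, with sums of 3301 to 3742 CPM in AML WT and 2636 to 3472 CPM in AML KO. None of the primary granule, B cell, T and NK cell or stromal markers was called, and 2 of 10 markers of stem and progenitor cells were called higher. None of the defining markers of these lists was at 0 in all mice. AML WT 1 had the lowest and AML KO 1 the highest sum of erythroid and of neutrophil markers, as it had for most ribosomal protein genes. In AML HET 2 and AML KO 3, with ribosomal protein shares of 10.95% and 11.01%, the erythroid sums were 2220 and 2191 CPM. In AML WT 3 and AML KO 2, with shares of 10.54% and 10.60%, they were 451 and 1543 CPM. These are single mice picked for near-equal shares, and the relation of the shares to the sums was not tested. With the erythroid markers left out of the table, the members' median log2 fold change was 0.36. Reads of the members from erythroid cells stay in the counts in that setting, so it cannot show the part of these cells. The part of these cell types in the members' values was not tested.

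The subunits differed little. In AML KO against AML WT, the median log2 fold change was 0.40 over the 34 small subunit genes, with 33 above 0, 14 at an unadjusted p under 0.05 and 13 without overlap of the groups. It was 0.33 over the 48 large subunit genes, with 46 above 0, 11 at an unadjusted p under 0.05 and 15 without overlap. Over all genes, 48.1% were above 0 and 12.3% were higher without overlap of the groups. At an unadjusted p under 0.05 stood 9.77% of all genes in the higher direction and 17.7% in either. Counts on small subunit genes divided by counts on large subunit genes gave 0.826, 0.866 and 0.890 in AML WT, 0.887 and 0.890 in AML HET and 0.944, 0.883 and 0.8999 in AML KO. AML WT 1 and AML KO 1 were again the lowest and the highest mouse, and the groups overlapped. Rps29, a small subunit protein with a zinc finger, had the smallest p of all members (0.0126, unadjusted; adjusted p = 0.191) and was named after its values were seen. It stood at 883, 1257 and 1190 CPM in AML WT, 1029 and 1301 in AML HET and 1979, 1446 and 1525 in AML KO (log2 fold change 0.57 ± 0.19), with AML KO above AML WT in every mouse and a value of 0.28 without the outer pair.

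All 20 genes of the Diamond-Blackfan list, each a member, had a log2 fold change above 0 in AML KO against AML WT. So did 79 of all 82 members and 48.1% of all genes. At an unadjusted p under 0.05 stood 7 of the 20, against 30.5% of the members and 17.7% of all genes, and 0 passed the adjusted threshold. The median of the list was 0.39. The median was 0.08 without AML WT 1 and AML KO 1 and 0.14 with the coding length trend removed. Rps19, the gene most often mutated in that disease, stood at 951, 1459 and 1521 CPM in AML WT, 1404 and 1599 in AML HET and 2449, 1634 and 1577 in AML KO. Its AML KO mice were all above its AML WT mice, and the log2 fold change was 0.53 ± 0.22 (adjusted p = 0.272). Rps14, whose loss is linked to the anemia of the 5q- syndrome, stood at 1046, 1771 and 1860 CPM in AML WT, 1686 and 1941 in AML HET and 3079, 1992 and 1911 in AML KO (0.58 ± 0.25, adjusted p = 0.275). Rps26 (0.50 ± 0.19) and Rps24 (0.67 ± 0.28) also had an unadjusted p under 0.05, whereas Rpl35a (0.41 ± 0.24) did not.

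Rpl5 and Rpl11 form a particle with the 5S rRNA that binds the p53 inhibitor Mdm2 when ribosome assembly fails. Both had log2 fold changes of AML KO against AML WT below the members' median of 0.35. Rpl5 stood at 1187, 1348 and 1371 CPM in AML WT, 1293 and 1386 in AML HET and 1656, 1390 and 1289 in AML KO (log2 fold change 0.15 ± 0.14, adjusted p = 0.555). Rpl11 had a log2 fold change of 0.19 ± 0.15 (adjusted p = 0.511). Both were below 0 without the outer pair, at −0.02 each. Rps6, the substrate of the S6 kinases, stood at 933, 962 and 980 CPM in AML WT, 886 and 1009 in AML HET and 1131, 1060 and 959 in AML KO (0.13 ± 0.12, adjusted p = 0.561). Rpsa, also known as the laminin receptor, was above AML WT in every AML KO mouse (2964, 3535 and 3663 against 5174, 4033 and 3805 CPM; 0.36 ± 0.17, adjusted p = 0.297). Rps27a, which is made as a fusion with ubiquitin, had a log2 fold change of 0.41 ± 0.21.

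Loss of 1 Gab2 allele came with smaller values. In AML HET against AML WT, 68 of the 82 members had a log2 fold change above 0 (48.5% of all genes), with a median of 0.13 and a range from −0.11 to 0.42. No member passed the adjusted threshold (3 genes, 0.0225%), and 0 had an unadjusted p under 0.05 (2.47% of all genes in either direction, 1.65% higher). DESeq2 also called 0 members, and 59 genes (0.444%). In 8 members both AML HET mice were above all AML WT mice (9.53% of all genes) and in 1, Rpl32, both were below (8.61% of all genes). The largest values were those of Rps24 (0.42), Rps12 (0.42) and Rplp2 (0.38), and the lowest those of Rpl23a (−0.11), Rpl32 (−0.09) and Rps3 (−0.07). The median was 0.006 without AML WT 1 and 0.03 without AML HET 2, but 0.24 without AML WT 3 and 0.22 without AML HET 1.

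In AML KO against AML HET, 79 members had a log2 fold change above 0 (50.1% of all genes), with a median of 0.23. Of these comparisons, each pair shares a group of mice, so they are not independent of each other. No member and no other gene passed the adjusted threshold in edgeR (0%), and 3 members had an unadjusted p under 0.05, against 5.86% of all genes in either direction and 3.52% in theirs. The 3 were Rps29 (0.50 ± 0.21), Rpl36 (0.47 ± 0.20) and Rpl23a (0.40 ± 0.17), of which Rps29 and Rpl36 were named after their values were seen. DESeq2 called 77 genes (0.579%) and 0 members. In 17 members the AML KO mice were all above the AML HET mice, against 13.2% of all genes. The median was 0.06 without AML KO 1 and 0.15 without AML HET 1.

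Several members lie near Gab2, which is on chromosome 7 from 97081586 to 97308946 (GRCm38). Rps3, 2.17 Mb away at chr7:99477896-99483738, had a log2 fold change of 0.09 ± 0.14 in AML KO against AML WT. Its CPM was 1610, 1934 and 1874 in AML WT, 1649 and 1785 in AML HET and 2049, 2057 and 1675 in AML KO, with overlapping groups. Rpl27a (12.2 Mb away) had 0.25 ± 0.17 and Rps13 (19.0 Mb) 0.43 ± 0.19. These 3 values lay within the range of the members on other chromosomes.

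The levels of the members differed widely. Per kilobase of the principal transcript, the mean over all mice was highest for Rps12 (5586 CPM per kb), Rplp1 (4185) and Rps9 (3637), and lowest for Rps27rt (9.07), Rps19bp1 (28.2) and Rpl7l1 (55.3). The 3 lowest are thus not core ribosomal proteins. By the union of all annotated exons, the 3 lowest were the same genes, but Rps12 ranked 11.

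Paralogs were set against their parent genes. Rpl22l1, a paralog of Rpl22 whose protein can take its place in the ribosome, had 16.2, 15.7 and 15.6 counts per 100 counts of Rpl22 in AML WT, 17.3 and 15 in AML HET and 13.5, 14.04 and 14.7 in AML KO. The means were 15.8 ± 0.352 in AML WT and 14.1 ± 0.608 in AML KO (SD, n = 3 each), and the groups did not overlap. Both genes had positive log2 fold changes, of 0.28 ± 0.18 for Rpl22l1 and 0.45 ± 0.21 for Rpl22. Rps27rt had 0.420 ± 0.0228 counts per 100 counts of Rps27 in AML WT, a mean of 0.459 in AML HET and 0.331 ± 0.0383 in AML KO. Here too AML WT and AML KO did not overlap, at a level where reads could be split with the parent. Rps27l against Rps27 (13.5 ± 0.631 and 12.3 ± 2.38), Rpl36al against Rpl36a (34.8 ± 4.61 and 28.4 ± 2.97) and Rpl7l1 against Rpl7 (8.84 ± 0.825 and 8.34 ± 1.01) overlapped between AML WT and AML KO. The differences in these ratios were not tested. By the CPM of single genes, 12.3% of all genes were higher and 9.83% lower in AML KO without overlap with AML WT.

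Ribosomal protein pseudogenes share sequence with the members, and how reads with several matches were counted is not given in the sources used here. Of 50 in the table, 39 had a log2 fold change above 0 in AML KO against AML WT (48.1% of all genes). Their median was 0.19, and it was −0.14 without AML WT 1 and AML KO 1. At the adjusted threshold 1 was called, against 2.09% of all genes. This was Rps13-ps1 on chromosome 8, with 64, 52 and 53 counts in AML WT, 2242 and 2783 in AML HET and 9988, 1941 and 5558 in AML KO. It rose by 6.86 ± 0.55 on the log2 scale in AML KO (adjusted p = 0.00119) and by 5.69 in AML HET (adjusted p = 0.0106). Its parent Rps13 stood at 559, 647 and 716 CPM in AML WT and 1117, 734 and 746 CPM in AML KO, whereas the pseudogene reached 327 CPM in AML KO 1.

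Other parts of the translation machinery had smaller values. In AML KO against AML WT, the median of the 77 mitochondrial ribosomal protein genes in the table was 0.20 on the log2 scale, with 63 above 0 and 0 called, and a median of −0.06 without the outer pair. The 26 other translation genes with a TOP start had a median of 0.11, with 15 above 0 and 0 called, and of −0.0019 without the outer pair. Of them 4, all higher, had an unadjusted p under 0.05, against 9.77% of all genes in that direction and 17.7% in either. They were Snhg8 (0.86 ± 0.29), a host transcript of a small nucleolar RNA, Fau (0.64 ± 0.25), which encodes the ribosomal protein eS30 as a fusion, Eef1b2 (0.48 ± 0.21) and Eif3k (0.39 ± 0.17). The 16 genes of RNA polymerase I and rRNA transcription had a median of −0.10, with 7 above 0, and the 58 ribosome assembly genes a median of −0.04, with 22 above 0. Neither list had a called gene. Without the outer pair these medians were 0.0069 and −0.06, and with the coding length trend removed 0.017 and 0.04, so the direction of both depends on these choices. Among the 58 assembly genes, only Gar1 (0.55 ± 0.19) and Imp3 (0.39 ± 0.15), both higher, and Ddx18 (−0.32 ± 0.13), lower, had an unadjusted p under 0.05. The share over all genes was 17.7% in either direction.

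Among 23 regulators of ribosome production, 1 was called, against 2.09% of all genes. Mxd1, a MAX partner that opposes MYC, stood at 31.8, 34.7 and 43.4 CPM in AML WT, 47.0 and 52.6 in AML HET and 70.0, 65.4 and 61.1 in AML KO. It rose by 0.84 ± 0.14 on the log2 scale in AML KO (adjusted p = 0.0192), and its adjusted p was between 0.0604 and 0.0995 without AML WT 2, AML KO 1 or AML KO 3. Mycn, a MYC family activator of ribosome genes, stood at 18.7, 18.6 and 14.5 CPM in AML WT, 23.6 and 19.3 in AML HET and 34.4, 25.8 and 28.4 in AML KO, with a log2 fold change of 0.78 ± 0.17 (adjusted p = 0.0532, edgeR). Of 22 alternatives, it passed the threshold in 4: DESeq2 (adjusted p = 0.00159), upper-quartile normalization (0.0429), the coding length trend (0.0325) and without AML KO 2 (0.0408). Under the rest it did not pass, with an adjusted p of up to 0.176. At an unadjusted p under 0.05 stood Mxd1 and Mycn, both higher, and the kinase genes Mtor (−0.57 ± 0.24) and Rps6kb1 (−0.44 ± 0.15), both lower. Over all genes, 17.7% had an unadjusted p under 0.05 in either direction. The median of the list was −0.15, with 7 of 23 above 0; it was 0.023 without the outer pair and −0.04 with the coding length trend removed.

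Of 11 p53 targets in the table, 4 had a log2 fold change above 0, the median was −0.05 and 1 was called, against 2.09% of all genes. Pmaip1, which encodes the pro-apoptotic protein Noxa, stood at 24.5, 27.6 and 34.1 CPM in AML WT, 26.4 and 16.4 in AML HET and 15.8, 13.4 and 14.7 in AML KO. It fell by 0.97 ± 0.20 on the log2 scale (adjusted p = 0.0427), and its adjusted p was between 0.0835 and 0.156 without AML WT 2, AML WT 3, AML KO 1, AML KO 2 or AML KO 3.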

How the data were processed

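RNA of whole BM of 8 mice was sequenced on an Illumina HiSeq4000. The authors deposited raw counts per Ensembl gene. Their processing notes name Trimmomatic 0.36, STAR 2.5.2b and mm10, while the counting tool, strandedness and any poly(A) selection are not given in the sources used here. Symbols were matched to GENCODE M21 for 13266 of 13305 genes. Counts were fitted with edgeR 4.0.16 (R 4.3.3; TMM, filterByExpr, which removed 0 genes, robust quasi-likelihood test) on all mice, with genotype as the only term and Benjamini-Hochberg adjustment over all genes at 0.05. On simulated counts for AML KO against AML WT over 13305 genes, the fit found 97 of 100 genes changed 4-fold and 68 of 100 changed 2-fold, with 5 unchanged genes called. DESeq2 1.42.0 and limma-voom 3.58.1, other normalizations, filters, length trends (exonic or coding; loess span 0.3) and left-out mice were alternatives. Each library is a separate mouse, and the labels name no batch. Intervals cover counting error only. Promoter sequences are from RefSeq (GRCm38.p6).

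The members and lists were chosen with earlier results of these data known. Members named were those called, the 5 largest and 5 smallest values in AML KO and 3 and 3 in AML HET, the 3 highest and lowest per kb, paralogs with parents, members within 20 Mb of Gab2, and a short list of disease, stalk and signaling genes. The values of 1 member are not reported here, although it is in the counts and medians.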

Additional observations from a re-analysis of the deposited data

How the results depend on the processing

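Of 40 named members, 21 had the same direction of AML KO against AML WT under all 22 alternatives, and no member was called by edgeR under any of them. DESeq2 called 1 member, Rplp2, and 730 genes in place of 278; leaving out 1 mouse gave 40 (AML WT 2) to 370 (AML KO 2) genes and 0 members, and a median of 0.19 to 0.46. The labels do not say whether equal mouse numbers pair the samples. Same-number correlations between AML WT and AML KO, taken around the group means, were −0.51, −0.11 and −0.13. Different numbers were not compared, so these values cannot settle it. With the number as a replicate block, the median was 0.35 and 19 genes were called. In that fit 3 members had an unadjusted p under 0.05, against 1531 of all 13305 genes. The median fell to 0.074 with both outer mice left out, a setting chosen after seeing the data, as was the coding length trend. By library size only it was 0.29, by upper quartile 0.38.

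Directions reversed as follows. With both outer mice left out these were Rpl11 (−0.017), Rpl15 (−0.070), Rpl22l1 (−0.033), Rpl35a (−0.054), Rpl36al (−0.053), Rpl5 (−0.021), Rpl7 (−0.11), Rpl7l1 (−0.076), Rplp0 (−0.0027), Rps19bp1 (−0.16), Rps27 (−0.052), Rps27l (−0.18), Rps3 (−0.029) and Rps4x (−0.019). With the coding length trend they were Rpl15 (−0.13), Rpl32 (−0.030), Rpl39 (−0.028), Rpl7l1 (−0.068), Rps27 (−0.021), Rps27l (−0.18) and Rps3 (−0.018). With the exonic length trend they were Rpl15 (−0.096), Rpl32 (−0.068), Rplp0 (−0.081), Rps27l (−0.12), Rps4x (−0.051) and Rps6 (−0.084). By library size only they were Rpl15 (−0.045) and Rpl7l1 (−0.018), and by upper quartile Rpl4 (0.016). Leaving out 1 mouse reversed Rpl15 (−0.033 to 0.094), Rpl4 (−0.054 to 0.053), Rpl7 (−0.046 to 0.26), Rpl7l1 (−0.023 to 0.089), Rps27l (−0.064 to 0.26) and Rps27rt (−0.19 to 0.17). Where a cause is not plain from fewer mice, the cause was not tested. Every member's fitted change here was below 2-fold, the smallest change simulated, so how many such changes this design finds was not tested.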
